A study of Mus musculus with 2 samples.

Results

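Insulin, amylin and the granins are the main secretory cargo of the pancreatic beta cell, and 10 of their genes were followed here: Ins1, Ins2, Iapp, Chga, Chgb, Scg2, Scg3, Vgf, Ptprn and Ptprn2. They were chosen by symbol, and all 10 were found among the 21542 genes of the deposited all-gene table. The data are RNA sequencing of MIN6 cells, a line of insulin-secreting cells from a mouse insulinoma, with C57BL/6 given as the strain. The GR vector sample received a vector that expresses the glucocorticoid receptor (GR, encoded by Nr3c1) and the control vector sample a control vector, with 1 library of each. Both were grown in DMEM with 25 mM glucose, 15% serum and beta-mercaptoethanol, and received 4 ug of plasmid with 4.8 ul of Lipofectamine in a 3.5 cm dish. Not given in the sources used here are the share of cells that took up plasmid, the time to harvest, any added glucocorticoid and which receptor cDNA the vector held. The comparison asks how the transcripts of the hormone cargo differ between cells given the GR vector and cells given the control vector.

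Beta cells store insulin in dense-core granules, where proinsulin is cut to insulin and C-peptide and insulin crystallises with zinc. Amylin, the product of Iapp, is packed into the same granules and secreted with insulin. Granins are acidic proteins that aggregate in the secretory pathway, help granules to form and are cut into peptides. Ptprn and Ptprn2 encode IA-2 and phogrin, phosphatase-like proteins that span the granule membrane and are autoantigens in autoimmune diabetes. GR is a nuclear receptor that binds DNA when it holds a glucocorticoid, and glucocorticoids are known to lower insulin secretion in isolated islets.

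Mice have a pair of insulin genes. Ins1 is a retrotransposed copy of Ins2, and Ins2 is the counterpart of the human gene. Their messages resemble each other, so the sequences are shown to make clear which reads can be told apart. The first 150 coding bases of each, 5′ to 3′ from the start codon, are printed from GENCODE M21 (GRCm38), with the bases that differ in capitals. Ins1 lies at chr19:52264624-52264773 on the plus strand and Ins2 at chr7:142679384-142679533 on the minus strand.
Ins1: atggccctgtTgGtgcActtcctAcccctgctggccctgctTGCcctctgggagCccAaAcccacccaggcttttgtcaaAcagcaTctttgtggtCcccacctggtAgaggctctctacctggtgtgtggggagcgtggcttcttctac
Ins2: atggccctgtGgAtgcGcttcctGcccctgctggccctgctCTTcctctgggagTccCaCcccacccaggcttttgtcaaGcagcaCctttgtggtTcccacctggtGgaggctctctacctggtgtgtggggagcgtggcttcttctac
These stretches differ at 14 positions. Over the whole aligned coding sequence, 324 bases in Ins1 and 330 in Ins2 without the stop codon, 92.6% of 324 aligned positions were identical, and the longest identical run was 54 bases. Of all stretches of 31 bases in the annotated transcripts, 4.55% of those of Ins1 and 3.27% of those of Ins2 also occurred in the other gene. How reads from these stretches were assigned is not stated, so part of the counts of Ins1 and Ins2 is uncertain. Of the other members, Ptprn shared 3.05% of its 31-base stretches, all with the antisense gene Gm28294, which had 4 reads in the GR vector library and 3 in the control vector library. Chga shared 0.996%, and the other 6 members shared 0%.

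RefSeq's promoter table (GRCm38.p6) held 8 of the 10 members, without Ins2 and Vgf. The 150 bases before the annotated start are printed 5′ to 3′ for the 4 members in which a searched motif was found, with the matches in capitals. The motifs were the glucocorticoid response element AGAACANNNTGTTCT, its single hexamer AGAACA (which every full element holds), the cAMP response element TGACGTCA and CATCTG, an E box known from the insulin promoters. Both strands of the 250 bases before the start were searched.
Ins1, chr19:52264147-52264296, plus strand: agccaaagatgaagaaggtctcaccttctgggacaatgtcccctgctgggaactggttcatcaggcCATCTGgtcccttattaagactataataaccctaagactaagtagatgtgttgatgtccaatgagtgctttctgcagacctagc
Iapp, chr6:142298275-142298424, plus strand: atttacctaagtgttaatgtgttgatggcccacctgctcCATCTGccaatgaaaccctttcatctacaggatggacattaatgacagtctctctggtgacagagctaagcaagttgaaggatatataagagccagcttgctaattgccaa
Chgb, chr2:132781492-132781641, plus strand: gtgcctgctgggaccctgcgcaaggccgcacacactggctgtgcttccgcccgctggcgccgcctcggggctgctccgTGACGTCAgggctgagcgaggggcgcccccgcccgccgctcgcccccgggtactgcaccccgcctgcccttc
Scg2, chr1:79440027-79440176, minus strand: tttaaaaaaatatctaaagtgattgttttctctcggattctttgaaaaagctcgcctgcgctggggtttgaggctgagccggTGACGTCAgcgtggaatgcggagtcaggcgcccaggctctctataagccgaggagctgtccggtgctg
CATCTG was found in Ins1 and Iapp, and in 14.4% of all 32851 promoters of the table. TGACGTCA was found in Chgb and Scg2, from position -72 and position -68 before the start, and in 1.55% of all promoters. Neither the full glucocorticoid response element (0.00913% of all promoters) nor the hexamer (16.1%) was found in these windows of the 8 members. A match describes the letters and not binding. RefSeq places some starts downstream of the gene bounds in the deposited table, so that all 150 bases of the Chgb window and 94 of the Scg2 window lie inside the deposited gene. The Ins1 window ends at 52264296, before the deposited gene start at 52264323 and the start codon at 52264624. The bases from the end of that window to the start codon were not searched.

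The GR vector library held 18525668 reads over genes and the control vector library 18537326. With 1 library per group the differences below could not be checked against replicates, and intervals cover the error of counting reads only. PCR copies are not independent molecules, so these intervals are too narrow to that extent. In whole cultures, fewer cells that make a transcript and less of it per cell cannot be told apart. Nr3c1 had 5202 reads with the GR vector and 2645 with the control vector, a fold of 1.97 (95% interval 1.88 to 2.07), so the targeted transcript was higher in the library labelled for it. All 9 beta cell markers were read, from 145 to 20699 reads with the GR vector and from 159 to 20384 with the control vector. The 3 alpha cell markers analysed had 5 to 623 reads with the GR vector and 6 to 537 with the control vector, most of them from Gcg. Sst, of the delta cell, had 114 and 92 reads with the GR and the control vector. Hhex, Ppy and 4 exocrine markers have no value in the table used here. The part of these other cell types' markers in the results was not tested.

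**Figure D1:**
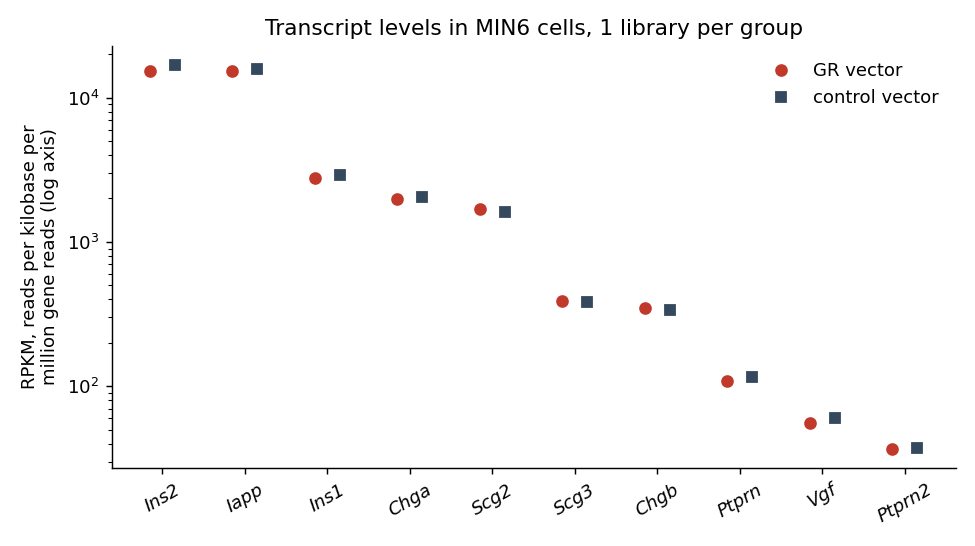
Level of each of the 10 genes in RPKM over the deposited gene length, on a log axis, with circles for the GR vector library and squares for the control vector library (1 library each). Ins2 and Iapp stand between 15178 and 16775, the other 8 genes between 36.9 and 2887, and the order of the genes is the same in both.

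Both insulin transcripts had fewer reads with the GR vector, Ins2 by more than Ins1 as counted. Ins2 (chr7:142678656-142743381, minus strand), the most read gene of both libraries, had 373033 reads with the GR vector and 407986 with the control vector. It made up 2.01% of all gene reads with the GR vector and 2.20% with the control vector. The fold (GR vector over control vector, libraries scaled by TMM) was 0.917 (95% interval 0.913 to 0.921), or -0.13 on the log2 scale. Ins1 (chr19:52264323-52265456, plus strand) had 51817 and 54374 reads with the GR and the control vector, a fold of 0.956 (0.944 to 0.967). The summed insulin reads stood at a fold of 0.922 (0.918 to 0.925). Ins1 supplied 12.2% of the insulin reads with the GR vector (exact Clopper-Pearson interval 12.1% to 12.3%) and 11.8% with the control vector (11.7% to 11.9%). The intervals of this share do not overlap, and the share is open to the stretches that both genes hold in common. With the trends of the log2 fold on GC content and gene length over all genes removed, Ins1 and Ins2 both stood at -0.07, so the gap between them was not kept. That rests on the GC content of the annotated transcripts, 48.2% over 1062 bases for Ins1 and 57.1% over 478 bases for Ins2. Their coding sequences are much alike, and other transcript models were not tried.

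Amylin also had fewer reads with the GR vector, by less than Ins2 as counted and by more once the GC content and length trends were removed (-0.11 for Iapp and -0.07 for Ins2 on the log2 scale). Iapp (chr6:142298423-142303961, plus strand) had 273874 reads with the GR vector and 283796 with the control vector. Its fold was 0.968 (0.963 to 0.973), or -0.05 on the log2 scale. The libraries held 0.734 Iapp reads per Ins2 read with the GR vector and 0.696 with the control vector, a difference whose direction turns with those trends removed. Slco1a5, an organic anion transporter gene that covers Iapp on the opposite strand without sharing exon bases, had 166 reads with the GR vector and 128 with the control vector. Ins1, Ins2 and Iapp together held 3.77% of the gene reads with the GR vector and 4.03% with the control vector, a fold of 0.939 (0.936 to 0.942).

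Of the classic granins, Chgb, Scg2 and Scg3 had more reads with the GR vector and Chga fewer. With the GC content and length trends removed Chga turned to 0.02 on the log2 scale, and all 4 then lay above 0. Chga encodes chromogranin A, which drives granule formation and is the precursor of pancreastatin and vasostatin. Chga (chr12:102554969-102565028, plus strand) had 101349 reads with the GR vector and 104300 with the control vector, a fold of 0.975 (0.966 to 0.983). The related chromogranin B gene, Chgb (chr2:132781278-132795079, plus strand), was higher with the GR vector, with 17786 reads against 17134 with the control vector and a fold of 1.04 (1.02 to 1.06). Scg2 encodes secretogranin II, the precursor of secretoneurin. It lies at chr1:79434669-79440120 on the minus strand and had 78591 reads with the GR vector and 75509 with the control vector, a fold of 1.04 (1.03 to 1.05). Scg3 encodes secretogranin III, which binds chromogranin A and the cholesterol-rich granule membrane. It lies at chr9:75643189-75684056 on the minus strand and had 19849 reads with the GR vector and 19343 with the control vector, a fold of 1.03 (1.01 to 1.05). Of the reads of Chga and Scg2 together, 43.7% came from Scg2 with the GR vector (43.4% to 43.9%) and 42.0% with the control vector (41.8% to 42.2%). Of those of Chga and Chgb together, 14.9% came from Chgb with the GR vector (14.7% to 15.1%) and 14.1% with the control vector (13.9% to 14.3%). In both shares the intervals of the libraries lie apart, but they cover counting error only. As counted, Scg2 stood at 0.06, Chgb at 0.06 and Chga at -0.04 on the log2 scale. With the GC content and length trends removed they stood at 0.04, 0.08 and 0.02. The gaps to Chga were then narrower, that of Scg2 most. Over Chga, Chgb, Scg2 and Scg3 the reads as counted came to nearly the same sum, with 217575 reads with the GR vector and 216286 with the control vector (fold 1.01, 1.00 to 1.01).

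Vgf and Ptprn had fewer reads with the GR vector, and Ptprn2 nearly as many. With the GC content and length trends removed they were at -0.03, -0.02 and 0.02 on the log2 scale. Vgf, induced by nerve growth factor and the source of several secreted peptides, lies at chr5:137026392-137033351 on the plus strand. It had 3093 reads with the GR vector and 3303 with the control vector, a fold of 0.939 (0.894 to 0.987). Ptprn (chr1:75247027-75264502, minus strand) had 8590 and 9118 reads with the GR and the control vector, a fold of 0.945 (0.917 to 0.973). Ptprn2 (chr12:116485720-117276849, plus strand) had 5874 reads with the GR vector and 5954 with the control vector. Its fold of 0.989 had an interval of 0.954 to 1.03, so at this depth no difference between the libraries could be detected. The share of Ptprn2 in the reads of both genes was 40.6% with the GR vector (39.8% to 41.4%) and 39.5% with the control vector (38.7% to 40.3%), with overlapping intervals.

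**Figure D2:**
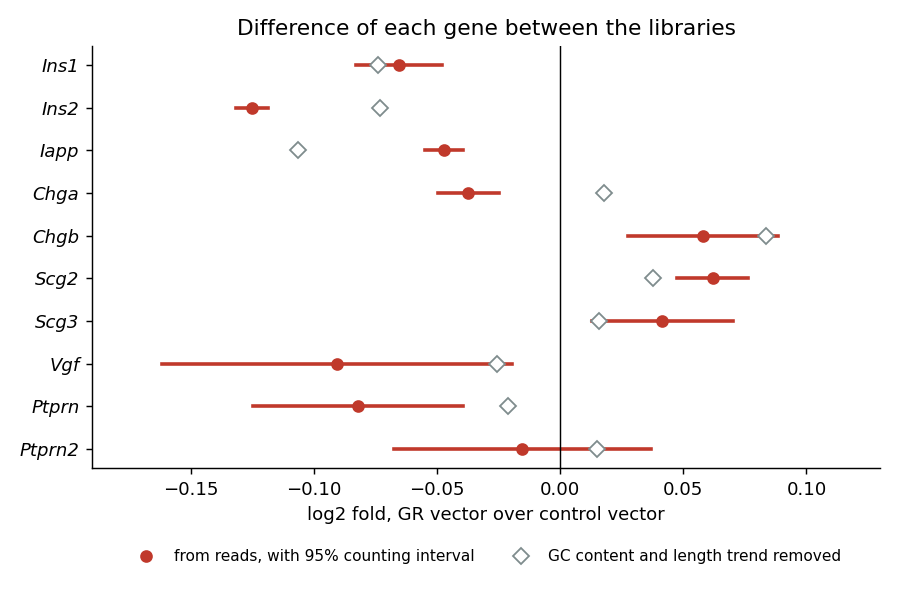
Log2 fold (GR vector over control vector) for each of the 10 genes (1 library each). Circles with bars are the values from the reads with their 95% counting intervals, and open diamonds the values after the trends of GC content and gene length over all genes were removed. Ins1, Ins2 and Iapp lie below 0 and Chgb, Scg2 and Scg3 above 0 both ways, while Chga and Ptprn2 change sign.

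The members were read against all genes of the pair of libraries. All 10 members averaged over 1000 reads, and 9 had an interval that left out 1, with 6 below and 3 above. Of all 4867 genes averaging 1000 reads or more, 26.6% had such an interval (11.0% below and 15.7% above), and of the 151 genes averaging 10000 or more, 60.3%. All 7 members in that deepest class had an interval that left out 1. Intervals shrink with depth, so these counts partly follow from how well the members were read. By size, 6 of 10 members reached an absolute log2 fold of 0.05, with 4 lower and 2 higher. Of the 4867 genes 50.9% did (22.3% lower and 28.6% higher). In the deepest class it was 4 of the 7 members, against 39.1% of the 151 genes. Under each of 4 other scalings 5 members were lower by 0.05, since Iapp then passed. At 0.1 it was 1 of 10 members, against 18.4% of the 4867 genes. That member was Ins2, 1 of the 7 in the deepest class, where 5.96% of the 151 genes reached 0.1. At 0.2 it was 0 of 10, against 1.36% of the 4867. The median log2 fold was -0.04 over the members and 0.01 over the 4867 genes, of which the central 90% lay between -0.12 and 0.13. With the GC content and length trends removed these medians were -0.0031 over the members and 0.0023 over all genes.

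Ins2 was the member at the edge of that range. A lower value than its -0.13 was found in 4.07% of the 4867 genes and in 1 of the 151 most deeply read genes. For Ins1 and Iapp, 16.2% and 23.3% of the 4867 genes were lower. Scg2, the highest member, had 76.9% of these genes below it.

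In the authors' deposited table, 4 of 21542 genes (0.0186%) passed an adjusted p under 0.05, and 0 of the 10 members did. The members' unadjusted p in the authors' deposited table ran from 0.760 for Ins2 to 0.971 for Ptprn2, so 0 of 10 were under 0.05, and the adjusted p was 1 for each. edgeR's exact test on the recovered reads with a preset dispersion of 0.04, a coefficient of variation of 20%, returned the same p-values to within 4.5e-08. The spread behind them was therefore set in advance and not measured, and differences of the members' size fall far inside it. Nr3c1, the targeted gene, did not pass the authors' adjusted p under 0.05 either.

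The log2 fold moved with the GC content of the transcript across all genes. Over the 4867 genes, of which 4866 have an annotated GC content, the median log2 fold was 0.07 in the decile with the lowest GC content and -0.06 in the decile with the highest. Ins2 (57.1% GC) sits next to the highest decile, among genes with a median of -0.04, and Chga (58.4%), Ptprn (59.5%) and Vgf (64.8%) sit in the highest. Iapp (40.5%) sits in the lowest, where it stood at -0.05 against that median of 0.07. Chgb (53.9%) was above 0 in a decile whose median was -0.02. The 5 members with the highest GC content were all below 0, and Scg2 (46.8%) and Scg3 (46.5%) were above 0 together with the genes around them.

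**Figure D3:**
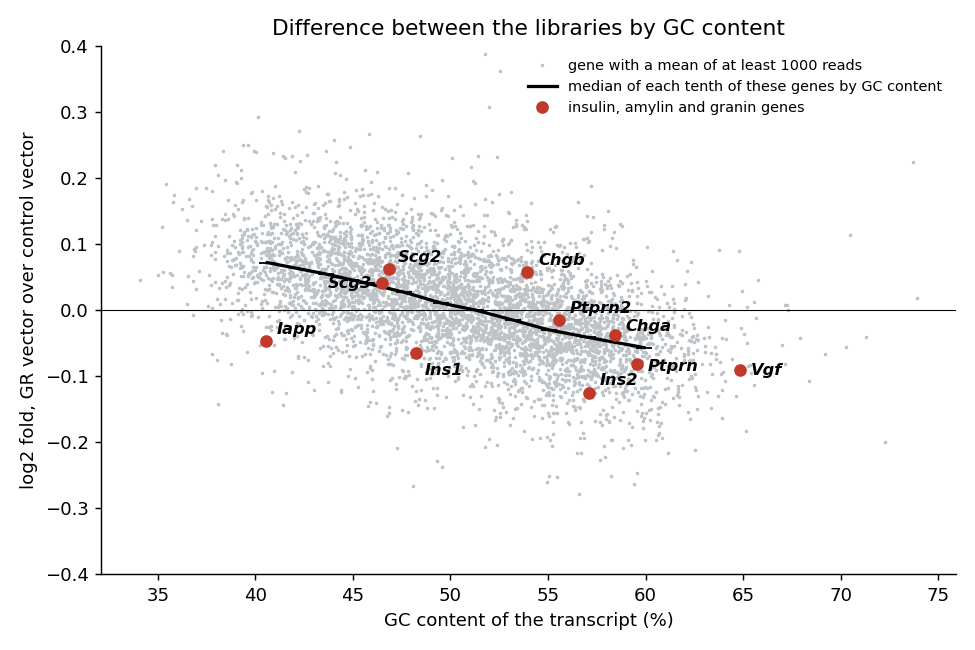
Log2 fold (GR vector over control vector) against the GC content of the transcript in percent. Grey points are genes averaging 1000 reads or more (5 beyond ±0.4 are not drawn), the black line joins the medians of deciles of these genes by GC content, and red points are the 10 members. The line falls from 0.07 to -0.06, Iapp, Ins1 and Ins2 lie furthest below it, and Chgb lies furthest above it.

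With the trends of GC content and gene length removed, the hormones stayed below 0 and Chgb above it, and the other members lay within 0.04 of 0. Ins2 stood at -0.07, Ins1 at -0.07 and Iapp at -0.11 on the log2 scale. Given the GC content of the annotated transcripts, the gap between Ins1 and Ins2 was then under 0.01. Iapp had the largest absolute value of the 10. Of the 151 most deeply read genes, 2 were lower than Iapp on this scale, 7 lower than Ins1 and 8 lower than Ins2. Chgb stood at 0.08, with 147 of the 151 and 90.2% of the 4866 genes below it. Scg2 was at 0.04 and Scg3 at 0.02. Chga turned to 0.02 and Ptprn2 to 0.02, while Vgf and Ptprn stood at -0.03 and -0.02. On this scale 4 of 10 members reached an absolute value of 0.05, 3 lower and 1 higher. Of the 4866 genes 39.3% did (18.4% lower and 20.8% higher). These 4 members are all among the 7 averaging 10000 reads or more, and of the 151 genes in that class 21.9% reached 0.05. What causes the trend was not tested, and with 1 library per group it cannot be told apart from an effect of the vector.

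Levels of the members were set in order per length, as RPKM (reads scaled by gene length in kilobases and by the reads over all genes). In the GR vector library Ins2 had 15348 RPKM (exact Poisson interval 15298 to 15397) and Iapp 15178 (15121 to 15235). In the control vector library Ins2 had 16775 and Iapp 15718. With the GR vector, Ins1 followed with 2753, Chga with 1985, Scg2 with 1687, Scg3 with 391, Chgb with 350.4, Ptprn with 109, Vgf with 56.2 and Ptprn2 with 36.9. With the control vector, Ins1 had 2887, Chga 2042, Scg2 1620, Scg3 381, Chgb 337, Ptprn 116, Vgf 59.9 and Ptprn2 37.3. The order of the genes was thus the same in both libraries. Neighbours in this order did not overlap in their counting intervals in either library. The deposited length of a gene merges all its annotated exons, which for Ins2 includes distant first exons. With the length of the first-numbered coding transcript instead, Ins2 had 42126 with the GR vector and 46044 with the control vector. Chga then passed Ins1, and Ptprn2 passed Vgf.

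Other genes of the granule had a median log2 fold of 0.02. They were listed in 3 groups of 29 genes in all, of which 23 averaged 1000 reads or more. Of these 23, 8 were higher and 2 lower by at least 0.05 on the log2 scale, against 28.6% and 22.3% of the 4867 genes. The counts were 7 and 4 under each of 4 other scalings, and 5 and 3 with the GC content and length trends removed. The cargo and processing group had a median log2 fold of 0.04 over 8 such genes. Cpe, the carboxypeptidase that trims prohormones, had 33385 reads with the GR vector and 32338 with the control vector (fold 1.04, 1.02 to 1.05). Pcsk2, a prohormone convertase of proinsulin, had 27013 and 26419 reads with the GR and the control vector (fold 1.03, 1.01 to 1.04). Scg5, the chaperone 7B2 of that convertase, had 2809 with the GR vector and 2576 with the control vector (fold 1.09, 1.04 to 1.15). Pcsk1n, which encodes the granin-like convertase inhibitor proSAAS, was lower, with 6205 reads with the GR vector and 6796 with the control vector (fold 0.916, 0.885 to 0.948).

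The granule membrane and exocytosis group had a median log2 fold of 0.01 over 10 genes with at least 1000 reads. Slc30a8, the zinc transporter of the granule, had a fold of 1.01, Sytl4 (granuphilin) one of 1.05 (1.02 to 1.08) and Cltrn (collectrin) one of 1.06 (1.01 to 1.11). The granule biogenesis group had a median of 0.05 over 5 such genes. Ccdc186, needed for cargo sorting into dense-core granules in worm and rodent cells, had 1176 reads with the GR vector and 998 with the control vector (fold 1.18, 1.09 to 1.29). Its partner Eipr1 had 678 with the GR vector and 739 with the control vector (fold 0.920, 0.828 to 1.02). Rab2a had a fold of 1.03 and Syt4 one of 1.06. With the trends removed the median of the biogenesis group was 0.0052, that of the cargo and processing group 0.03 and that of the membrane and exocytosis group 0.0019. On that scale Syt4 stood at 0.02 instead of 0.08, Cltrn at 0.01 instead of 0.08 and Pcsk2 at 0.0068 instead of 0.04.

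**Figure D4:**
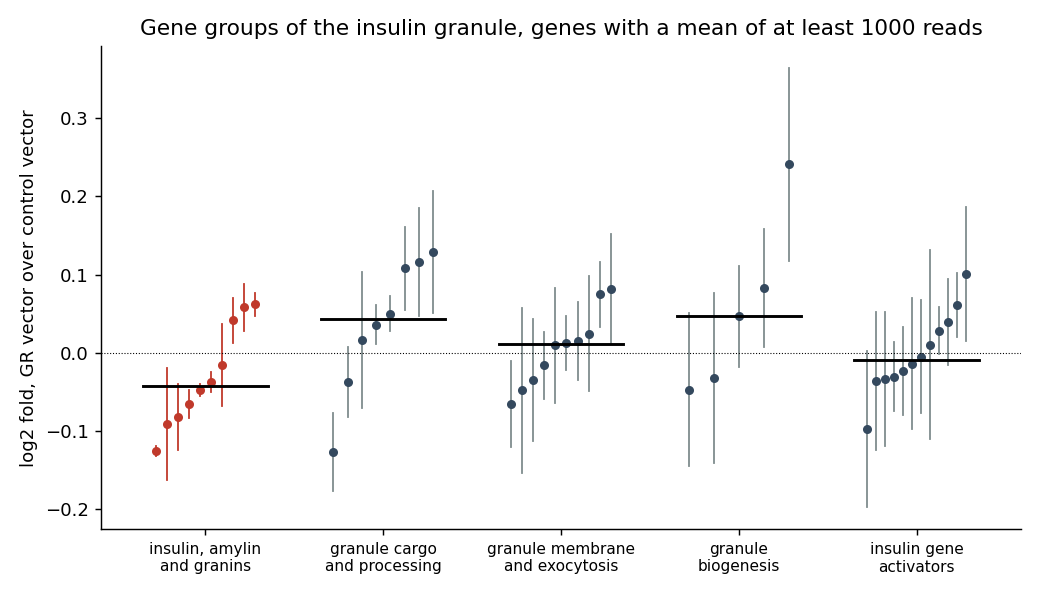
Log2 fold (GR vector over control vector) for genes whose mean reached 1000 reads, in 5 gene groups, with 95% counting intervals as vertical lines and the group median as a black bar (1 library per group). The insulin, amylin and granin genes have a median of -0.04, and the medians of the other groups lie between -0.01 and 0.05. With the GC content and length trends removed, which is not drawn, the members' median is -0.0031 and the others lie between 0.0019 and 0.03.

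The activators of the insulin genes had folds on both sides of 1. Over 12 transcription factors the median log2 fold was -0.01, with 2 higher and 1 lower by at least 0.05, against 28.6% and 22.3% of the 4867 genes. With the GC content and length trends removed the median turned to 0.03, with 4 higher and 3 lower by 0.05, against 20.8% and 18.4%. Mafa, which binds the insulin promoter in mature beta cells, had 17357 reads with the GR vector and 17066 with the control vector (fold 1.02, 0.999 to 1.04). Pdx1 had 9932 with the GR vector and 9546 with the control vector (fold 1.04, 1.01 to 1.07), and Glis3 had 2278 with the GR vector and 2130 with the control vector (fold 1.07, 1.01 to 1.14). Foxa2 had 1583 with the GR vector and 1699 with the control vector (fold 0.934, 0.872 to 1.00). Of the receptors, Insr had 1292 reads with the GR vector and 1371 with the control vector (fold 0.945, 0.875 to 1.02), and Igf1r had 4940 with the GR vector and 4812 with the control vector (fold 1.03, 0.989 to 1.07). Ramp1, Ramp2 and Ramp3, which turn the calcitonin receptor into an amylin receptor, had between 12 and 102 reads in either library. Calcr, the gene of the calcitonin receptor itself, has no value in the data used here.

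The genes nearest to the hormones in log2 fold were picked for that likeness and are named as a description. Of 144 other genes averaging 10000 reads or more, the 3 closest to Ins2 in log2 fold were Atf5, Rimbp2 and H2afz, at -0.12, -0.11 and -0.14. Atf5, a stress-responsive transcription factor, had 10089 reads with the GR vector and 10994 with the control vector. The 3 closest to Iapp were Glul, Tubb5 and Esyt1, at -0.05, -0.04 and -0.05. This likeness rests on 2 libraries and says nothing of shared control.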

How the data were processed

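RNA sequencing of 2 MIN6 libraries was used. Values per gene are a signal of scaled read counts that the authors deposited, in which 100% of values lie within 0.01 reads of whole multiples of a step per library, so that whole reads were recovered. The p-value and adjusted p are those the authors deposited; their deposited log2 fold change served as an alternative. Per the submitters' processing notes, DESeq2 1.10.1 was used; the aligner, the counter, strand handling and the build are not stated. Of the identifiers, 21516 occur in GENCODE M21 (GRCm38), 97.0% with the same start and end. The normalized enrichment score and q-values of gene sets are those the authors deposited.

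Folds were computed from recovered reads with TMM factors (edgeR 4.0.16; 0.999 for the GR vector and 1.00 for the control vector) and exact 95% Clopper-Pearson intervals. The preset-dispersion exact test called 4 genes. Trends were fitted by lowess (statsmodels 0.14.6) over genes averaging 100 reads or more, using the first-numbered coding transcript for GC content. The design foresaw protein features, which were not analysed here. Members and lists were chosen with earlier results of these data known. Named were all members, the targeted gene, the 3 genes nearest to Ins2 and to Iapp in log2 fold, genes overlapping a member, and from each list the 2 most read genes and the 2 with the largest absolute log2 fold at a mean of at least 100 reads. The list of fibroblast, endothelial and immune markers had at most 68 reads per gene. Alternatives were other scalings, trend removal, the authors' fold, and read minimums.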

Additional observations from a re-analysis of the deposited data

How the results depend on the processing

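No paired analysis was possible because each group has 1 library. Under the library total without a factor, DESeq2 size factors, totals without the most read genes and centring on the median of well-read genes, each member's log2 fold kept its sign and shifted by -0.0072 to -0.0033. Only Ins2 left its counting interval, at -0.13 after centring. The authors' deposited log2 fold changes differed by at most 3.5e-06. Removing the GC content and length trend moved Ins2 to -0.073, Iapp to -0.11, Scg2 to 0.038 and Ptprn to -0.021, and reversed Chga to 0.018. With the GC content trend alone, chosen after seeing the data, they were at -0.079, -0.11, 0.036, -0.027 and 0.014, and Scg3 was at 0.013. Members higher by at least 0.05 then numbered 1 instead of 2 both ways. Other granule genes higher by 0.05 numbered 5 with both trends and 4 with the GC content trend removed instead of 8. At 0.1 there were 2 higher and 0 lower instead of 4 and 1, both ways. At 0.2 there were 0 higher instead of 1, both ways. Of the 4867 genes as counted, 10.8% were higher and 7.6% lower by 0.1, and 0.822% higher by 0.2. With both trends removed, 5.73% of 4866 genes were higher and 5.34% lower by 0.1. Under each of the 4 other scalings 4 instead of 2 of the other granule genes were lower by 0.05. Genes past 0.1 were 34.0% at a minimum of 100 reads and 58.4% with none, and past 0.2 they were 9.92% and 42.3%. The cause of these shifts was not tested. Sparse counts spread more, and their part in these shares was not tested either. Depth limits Ptprn2 and Vgf most.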

Other observations

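Among 307 gene sets scored in a report that the authors deposited, 3 concern insulin and diabetes. That report is the one for the GR vector and lists sets scored toward it, so the positive sign of a score is no result. Enrichment scores of these 3 sets ran from 0.597 to 0.667. Maturity onset diabetes of the young and type I diabetes mellitus ranked at places 176 and 278 of the 307 by normalized enrichment score. In that deposited report insulin secretion (85 genes) ranked at place 85 by normalized enrichment score (1.01, q of 0.941). Maturity onset diabetes of the young (27 genes) had a normalized enrichment score of 0.998 with a q of 0.974, and type I diabetes mellitus (62 genes) one of 0.979 with a q of 0.991, all as the authors deposited them. Of the genes that overlap Ptprn2, a host of Mir153, the pseudogene Gm6750 had 15 reads with the GR vector and 18 with the control vector, and Gm17807, Gm10421 and Gm5441 had at most 5 in either library. Ghrl, the ghrelin gene of epsilon cells, had 21 reads with the GR vector and 15 with the control vector, and Gcg, the glucagon gene, had 623 with the GR vector and 537 with the control vector (fold 1.16, 95% interval 1.04 to 1.31).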
